A study of Bos taurus
Mus musculus with 10 samples.

Results

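A set of 10 genes of the contractile and adhesion machinery was followed in cultures of bovine embryonic stem cells on mouse feeder fibroblasts, 1 day after the Wnt pathway inhibitor IWR-1 was withdrawn. They encode the myosin II chains MYL9, MYH9, MYH10 and MYH11, the myosin light chain kinase MYLK, the actin filament nucleator LMOD1, the transcription factor SRF and the adhesion and cross-linking proteins VCL, ZYX and FLNA. The genes were grouped by their function, with earlier results of these data known, so the set was not chosen independently of them. In all, 10 of 10 were found by symbol among 27590 bovine gene IDs, and 10 of 10 by NCBI gene ID among 31349 mouse gene IDs. All 10 passed the filter on low values in both tables (10 or more normalised reads in 5 or more libraries), which kept 18506 bovine and 15871 mouse genes.

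Non-muscle myosin II, with heavy chains MYH9 or MYH10, and its smooth muscle relative, with MYH11, pull on actin filaments when MYLK phosphorylates the regulatory light chain, one form of which is MYL9. That tension is passed to the matrix at focal adhesions, where VCL couples talin to actin, ZYX gathers at strained filaments and FLNA cross-links actin and binds integrins. Free actin monomers hold back the cofactors MRTFA and MRTFB, so that actin assembly frees them to act with SRF on genes of the contractile machinery, SRF itself among them. Fibroblasts are rich in this machinery, and cultured epithelial and stem cells use it at their colony edges and junctions.

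Bovine lines 1, 2, 4, 8 and 11, derived from blastocysts of day 7.5 and labelled as wild type, grew on mitomycin C-arrested fibroblasts from CD-1 mouse fetuses of stage E13.5. Every line was split over a pair of wells in mTeSR1-based medium: 1 well kept 2.5 µM IWR-1, a tankyrase inhibitor that stabilises AXIN, and the other was rinsed and given the same medium without it. All wells had been kept with IWR-1 before. The 10 wells gave 5 libraries per medium, each counted separately on bovine genes (48064953 to 64345738 recovered reads) and on mouse genes (17101894 to 35223039).

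The bovine table held high values of the pluripotency gene POU5F1 in every well (18294 to 62019 normalised reads), and of SOX2 (13371 to 22072). The mouse table pairs no ID with a name, so fibroblast markers of the feeders were not checked. Line 4 stood apart: its bovine COL1A2, a fibroblast collagen gene, reached 28291 normalised reads with IWR-1 and 30918 without, against 89.7 to 372 in the other wells, and mouse genes took 42.3% and 41.4% of its reads against 21.2% to 33.3%. In 5 of 5 lines the mouse share was lower after withdrawal, with differences of -6.63 to -0.92 percentage points (exact two-sided sign-flip test p = 0.0625, the smallest that 5 pairs allow). In a mixed well, fewer cells of a type and less RNA per cell cannot be told apart. For reads that fit both genomes, the rule of assignment is not given in the sources.

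Without IWR-1, 2 of the 10 genes rose in the bovine stem cells, MYL9 and LMOD1, and 4 rose in the mouse feeders, Myl9, Myh11, Lmod1 and Myh10; none fell in either species. Mean log2 changes were above 0 for all 10 genes in both tables, as they were for 48.4% of all tested bovine and 49.9% of all tested mouse genes. Changes are given as log2(value + 1) without IWR-1 minus with it, within lines, with limma's standard error and a Benjamini-Hochberg adjusted p over all tested genes of the table, called under 0.05. Of all tested bovine genes 0.886% were called higher and 0.0648% lower, and of all tested mouse genes 2.14% higher and 2.05% lower. At an unadjusted p under 0.05 stood 6 of the 10 bovine and 7 of the 10 mouse genes, each with a change above 0; over all tested genes, in either direction, it was 1870 of 18506 bovine and 2573 of 15871 mouse genes. The median change of the 10 genes was 0.22 in the bovine and 0.26 in the mouse table, where the medians over all tested genes were 0.00 and 0.00.

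These calls rest on comparing wells within a line. With medium as the only term limma called 0 genes in either table, with 105 bovine and 584 mouse genes at an unadjusted p under 0.05. With the line and each well's mouse share both in the model it also called 0, with 456 and 687 genes at an unadjusted p under 0.05, and the bovine log2 changes of MYL9 and LMOD1 were then 0.68 and 0.52. In that fit bovine MYH11 was at 0.12, against 0.49 without the mouse share, and feeder Myh9 at 0.04, against 0.21. Feeder Myh11 was at 1.5, against 0.99. Withdrawal and a falling mouse share went together in every line, so this fit separates medium and share only weakly. Its shifted values and lost calls therefore do not show a part of the share in these changes, which was not tested.

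**Figure D1:**
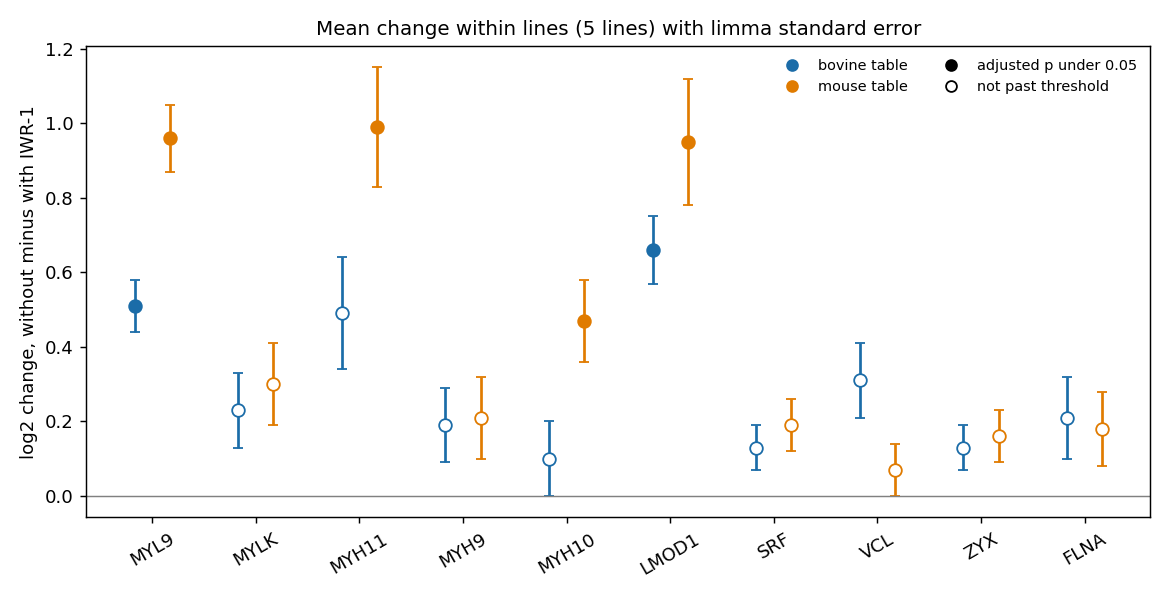
Mean log2 change within 5 lines (vertical axis, without minus with IWR-1) for the 10 genes in the bovine table (blue) and the mouse table (orange), with limma standard errors; filled points passed an adjusted p of 0.05. Filled points are MYL9 and LMOD1 in the bovine table and MYL9, MYH11, LMOD1 and MYH10 in the mouse table.

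MYL9, the regulatory light chain of smooth muscle and non-muscle myosin, rose in both species. Its bovine values (gene ID 505964) with IWR-1 were 4044, 6468, 3100, 5108 and 8838 normalised reads in lines 1, 2, 4, 8 and 11, in that order, and 5908, 7708, 5161, 7282 and 12359 without it. Every line was higher without IWR-1, and line 11 was above all other lines in both media. The groups overlapped, also among the other 4 lines: line 2 with IWR-1 was above lines 1 and 4 without it. MYL9 rose by a log2 change of 0.51 ± 0.07 (SE, n = 5 lines; limma adjusted p = 0.0106), with 0.25 in line 2 as the smallest and 0.74 in line 4 as the largest step. It ranked 31st by p among the tested bovine genes. The call was lost without line 1 or line 11, where the largest adjusted p was 0.0733 (log2 change 0.45 to 0.57 whichever line was omitted).

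In the feeders Myl9 (gene ID 98932) was at 457, 1162, 1470, 473 and 1415 normalised reads with IWR-1 in the same order of lines, and at 881, 2455, 3076, 1067 and 2094 without it. The wells of lines 1 and 8 were low in both media, and those of lines 2, 4 and 11 were high. Myl9 rose 1.95-fold (log2 change 0.96 ± 0.09, limma adjusted p = 0.000222) and ranked 9th by p among the tested mouse genes. No omission of a single line ended the call.

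MYLK, the calcium and calmodulin-dependent kinase that phosphorylates that light chain, did not pass in either species. Bovine MYLK was at 1529, 2467, 1430, 2268 and 4310 normalised reads with IWR-1 and 2114, 3773, 1430, 2011 and 5180 without it. It was higher in lines 1, 2 and 11, level in line 4 and lower in line 8 (log2 change 0.23 ± 0.10, limma adjusted p = 0.487). The line accounted for 91.3% of its sum of squares and the medium for 3.42%. Feeder Mylk, at 103 to 292 with and 111 to 397 without IWR-1, was higher in 5 of 5 wells, by a log2 change of 0.30 ± 0.11 (limma adjusted p = 0.158).

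**Figure D2:**
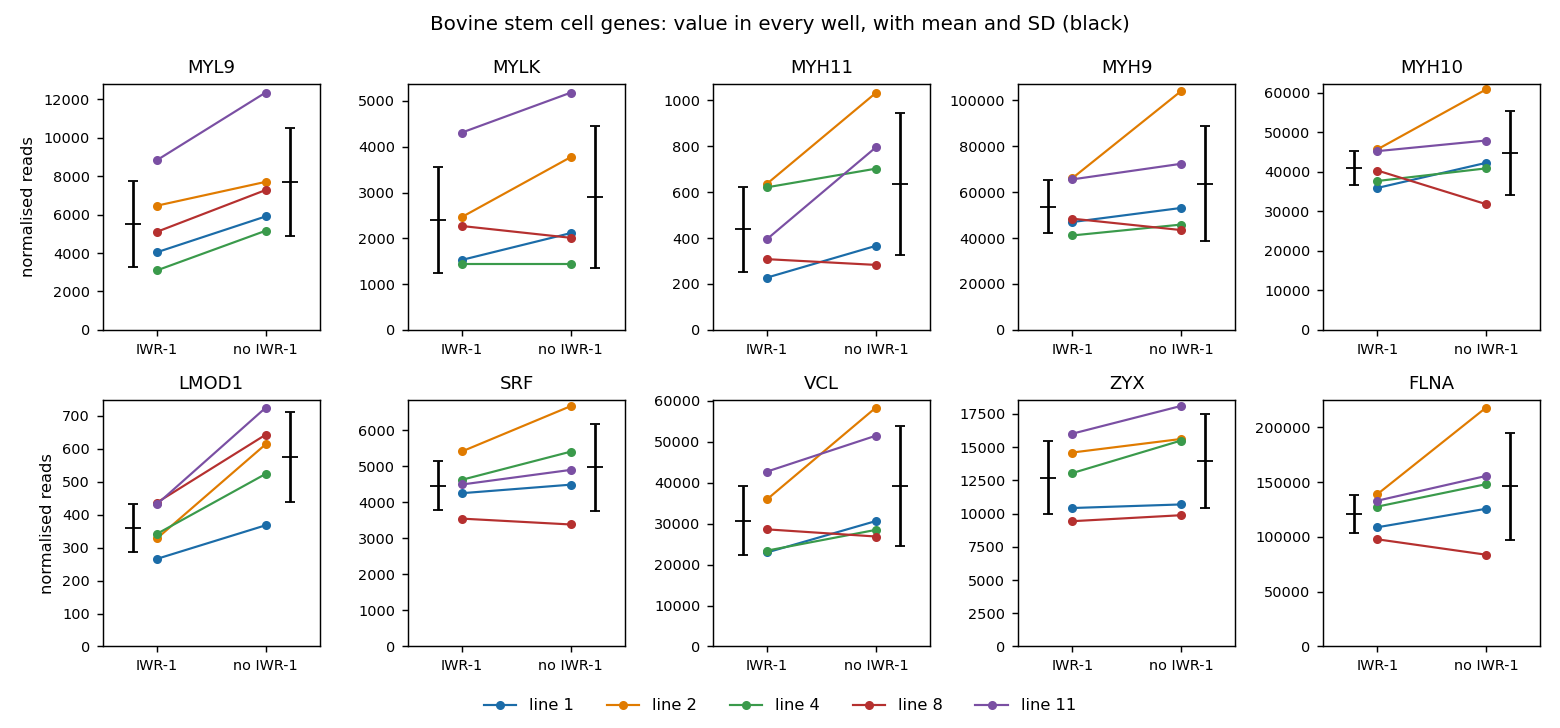
Normalised reads (vertical axes, from 0) of the 10 bovine genes in every well with and without IWR-1; coloured segments join the wells of a line and black bars give mean and SD of 5 wells. MYL9, LMOD1 and ZYX go up in all 5 lines, and line 8 (red) goes down in the other 7 genes.

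MYH9, the heavy chain of non-muscle myosin IIA, moved little except in line 2. Bovine MYH9 with IWR-1 stood at 46987, 66084, 41140, 48456 and 65565 normalised reads and without it at 53119, 104004, 45875, 43497 and 72357. Line 2 gained 1.57-fold and line 8 went to 0.898 of its level. The mean log2 change of 0.19 ± 0.10 was not called (limma adjusted p = 0.595) and was 0.08 without line 2. The feeder gene had its highest and lowest change in the same lines: Myh9 changed by 0.74 in the well of line 2 and by -0.15 in that of line 8, with a mean of 0.21 ± 0.11 (limma adjusted p = 0.395).

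MYH10, the heavy chain of non-muscle myosin IIB, differed between the tables. In the feeders Myh10 (gene ID 77579) was at 3606, 3964, 4848, 5271 and 5132 normalised reads with IWR-1 and at 5415, 7640, 7120, 5471 and 5953 without it. All wells without IWR-1 lay above all wells with it, a separation found upward in 0.258% of tested mouse genes; it was the 1 such case among the 10 feeder genes. Of the 10 bovine genes 0 separated in this way, against 0.0702% of tested bovine genes. Myh10 rose 1.39-fold (log2 change 0.47 ± 0.11, limma adjusted p = 0.0283), and the well of line 8 contributed 0.05. The call was lost without line 1, 4 or 11, with adjusted p-values up to 0.137. Bovine MYH10 was at 35915 to 45677 with and 31803 to 60844 without IWR-1, a log2 change of 0.10 ± 0.10 (limma adjusted p = 0.85) that was 0.02 without line 2 and 0.21 without line 8.

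MYH11, the heavy chain of smooth muscle myosin, rose in the feeders. Myh11 (gene ID 17880) was at 34.9, 153, 133, 69.1 and 129 normalised reads with IWR-1, which rest on 31 to 221 recovered reads, and at 102, 326, 312, 96.8 and 203 without it. Every well was higher without IWR-1, with a 2.87-fold step in the well of line 1 and a 1.4-fold step in that of line 8. The mean log2 change was 0.99 ± 0.16 (limma adjusted p = 0.00431), called whichever line was omitted (0.86 to 1.12).

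Bovine MYH11 was at 228, 637, 621, 308 and 396 normalised reads with IWR-1 and 366, 1032, 702, 283 and 795 without it. Line 11 went up 2-fold, lines 1 and 2 by 1.6-fold and 1.62-fold, line 4 by 1.13-fold, and line 8 went down. Its log2 change of 0.49 ± 0.15 was not called (limma adjusted p = 0.213), though DESeq2 on recovered reads called it. With 1 line left out the change ran from 0.36 without line 11 (adjusted p = 0.701) to 0.64 without line 8 (adjusted p = 0.0567). With the mouse share in the model it was 0.12, in a fit that separates medium and share only weakly.

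LMOD1, a leiomodin that nucleates actin filaments in smooth muscle, was the other gene called in both species. Bovine LMOD1 (gene ID 532090) went from 266, 328, 342, 437 and 432 to 368, 614, 524, 643 and 725 normalised reads. The steps ran from 1.38-fold in line 1 to 1.87-fold in line 2, and line 8 took part with 1.47-fold. LMOD1 rose by 0.66 ± 0.09 (limma adjusted p = 0.012), and the call was lost without line 11 (adjusted p = 0.0851). It was the 1 gene of the bovine set for which the medium (53.7% of the sum of squares) accounted for more than the line (43.4%).

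Feeder Lmod1 (gene ID 93689) was scarce, at 27 to 376 recovered reads per library. It stood at 30.4, 40.3, 128, 37.1 and 119 normalised reads with IWR-1 and at 82.4, 103, 226, 50.8 and 203 without it. Wells of lines 4 and 11 were highest in both media, and every well was higher without IWR-1. Lmod1 rose 1.94-fold (log2 change 0.95 ± 0.17, limma adjusted p = 0.00875), and the largest adjusted p with 1 line left out was 0.0477.

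**Figure D3:**
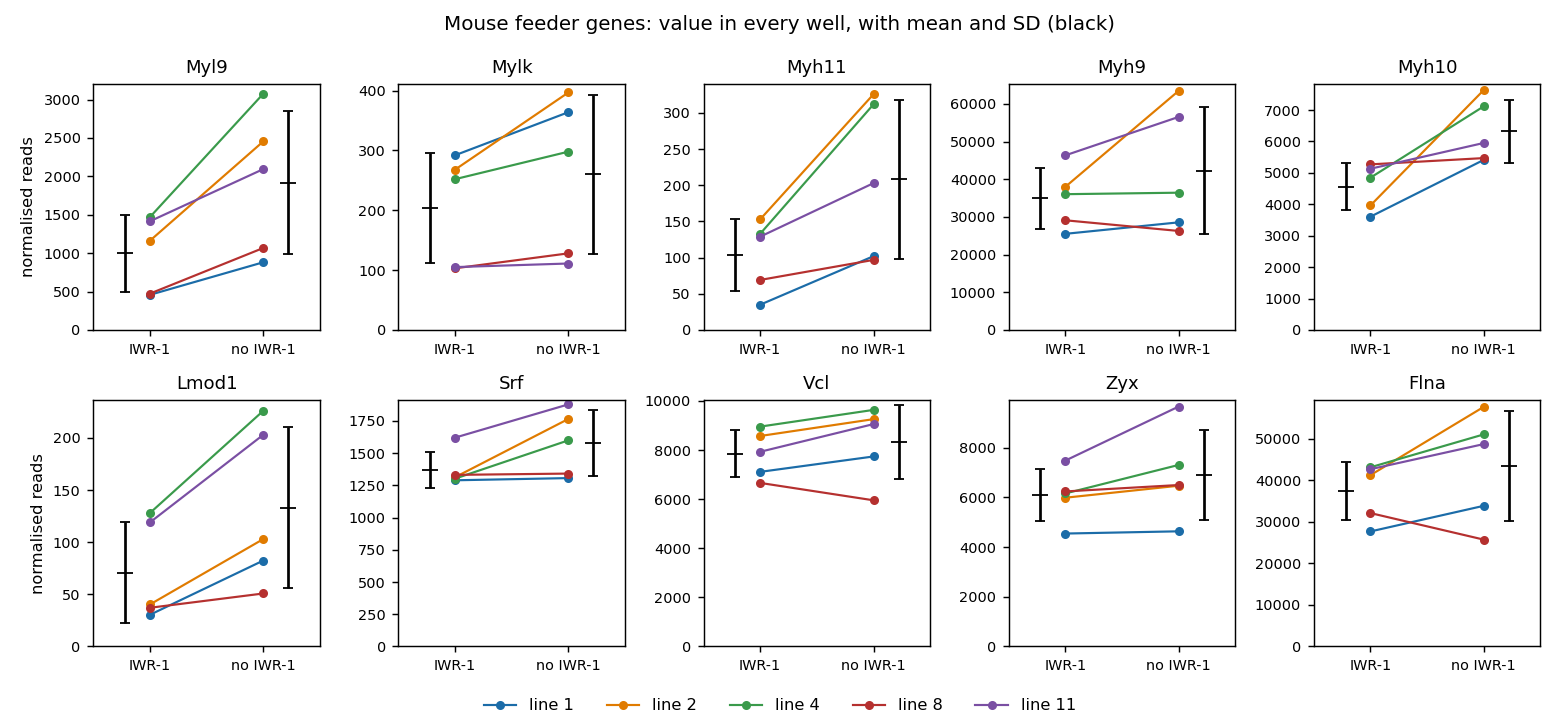
Normalised reads (vertical axes, from 0) of the 10 mouse genes in every well with and without IWR-1; coloured segments join wells by the co-cultured stem cell line and black bars give mean and SD of 5 wells. Myl9, Myh11, Lmod1 and Myh10 go up in every well, and Myh9, Vcl and Flna go down in the well of line 8.

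SRF, the factor that binds CArG boxes in front of many contractile genes, had small changes that were called in neither species. Values were higher without IWR-1 in 4 of 5 bovine lines and in 5 of 5 feeder wells. Bovine SRF was at 4251, 5410, 4623, 3545 and 4492 normalised reads with IWR-1 and 4487, 6666, 5403, 3383 and 4897 without it, so line 2 was highest and line 8 lowest in both media. The log2 change was 0.13 ± 0.06 (limma adjusted p = 0.538). Feeder Srf was at 1289, 1313, 1302, 1331 and 1620 with and 1306, 1765, 1599, 1341 and 1878 without IWR-1. Lines 1 and 8 gave changes of 0.02 and 0.01, and lines 2, 4 and 11 gave 0.43, 0.30 and 0.21 (mean 0.19 ± 0.07, limma adjusted p = 0.213).

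VCL, the adhesion protein vinculin, had a larger mean change in the stem cells than in the feeders. Bovine VCL went from 22969, 35965, 23415, 28596 and 42725 to 30630, 58342, 28478, 26854 and 51475 normalised reads. In 4 lines values were higher without IWR-1 and in line 8 lower, a mean of 0.31 ± 0.10 that was not called by limma (adjusted p = 0.228) but was by DESeq2 on recovered reads. With 1 line left out it was 0.22 to 0.42, with limma adjusted p-values from 0.0556 to 0.586. Feeder Vcl was at 6661 to 8955 with and 5953 to 9636 without IWR-1, with a mean change of 0.07 ± 0.07 (limma adjusted p = 0.677).

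ZYX, the LIM protein zyxin, had small changes that went the same way in every line. The bovine values were 10421, 14598, 13050, 9429 and 16015 normalised reads with IWR-1 and 10690, 15618, 15499, 9879 and 18104 without it, at most 1.19-fold apart within a line. Neither bovine ZYX (0.13 ± 0.06, limma adjusted p = 0.487) nor feeder Zyx (0.16 ± 0.07, limma adjusted p = 0.24) was called. Being higher in every line was itself the case for 6.2% of all tested bovine and 7.83% of all tested mouse genes, against 3 and 7 of the 10 genes here.

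FLNA, the actin cross-linker filamin A, had its highest change in line 2 and its lowest in line 8, as MYH9 had. Bovine FLNA was at 108818, 139062, 127665, 97808 and 133075 normalised reads with IWR-1 and 125701, 218095, 148152, 83744 and 155668 without it. Line 2 gained 1.57-fold and line 8 went to 0.856 of its level (mean log2 change 0.21 ± 0.11, limma adjusted p = 0.602). Feeder Flna changed by 0.48 in the well of line 2 and -0.32 in that of line 8. Its mean of 0.18 ± 0.10 was not called (limma adjusted p = 0.461), and without line 8 it was 0.30, with an adjusted p of 0.0381. Without line 2 it was 0.10, with an adjusted p of 0.666.

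**Figure D4:**
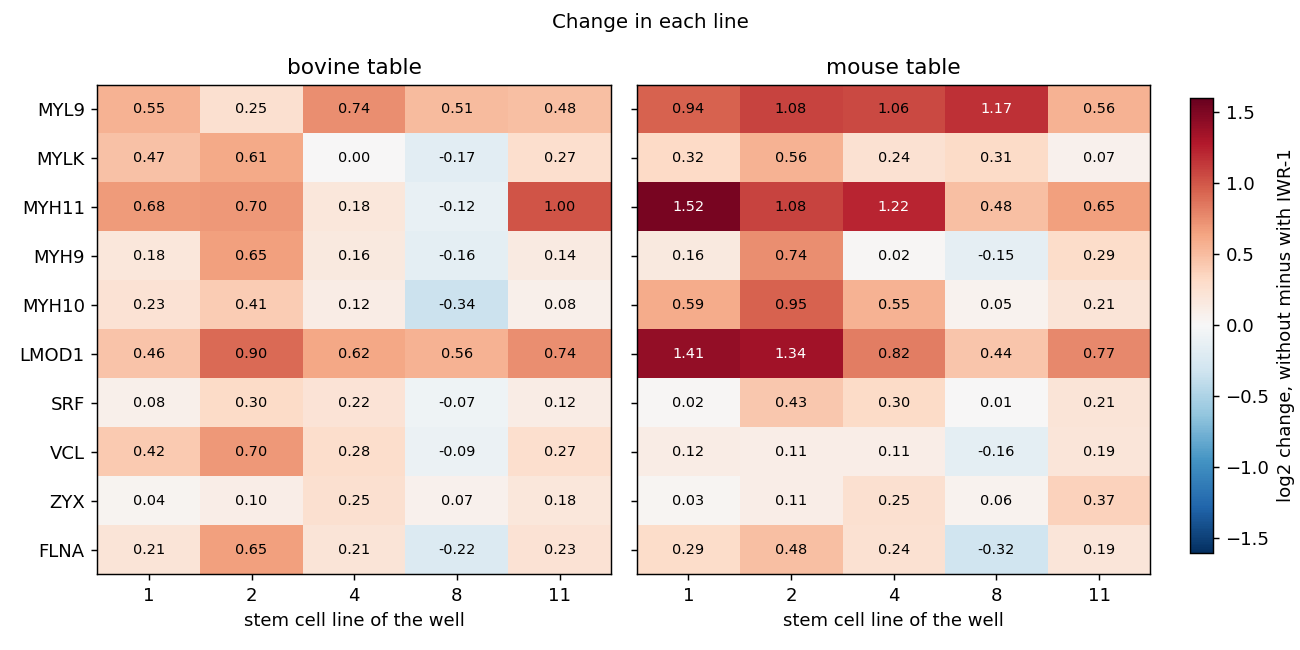
Log2 change without minus with IWR-1 in each line (columns) for the 10 genes (rows) in the bovine table and in the mouse table; red is higher and blue lower without IWR-1. Line 8 holds the negative values of both tables, and line 2 has the highest median over the 10 genes.

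Line 8 had the lowest change of the 5 lines for 7 of the 10 genes in each table. In its bovine reads 3 of the 10 genes were higher without IWR-1 (MYL9, LMOD1 and ZYX) and the median change of the 10 was -0.11, with MYH10 lowest at -0.34. Of all tested bovine genes 51% were higher in that line, with a median of 0.01. In its feeders 7 of 10 were higher, with a median of 0.06, and Myl9, at 1.17, had there its highest change of any well. Line 2 was the other extreme, with 10 of 10 genes higher in both tables and medians of 0.63 (bovine) and 0.65 (mouse), against 0.03 and 0.01 over all tested genes. The bovine and mouse values of a well come from 1 library, and each line has 1 well per medium, so a line and its wells cannot be told apart.

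The line took a larger part of the sum of squares than the medium for 9 of 10 genes in each table. The exceptions were bovine LMOD1 and feeder Myh10. There are more lines than media, and these parts are not scaled for that. Averaged over both media, line 4 was lowest for bovine MYL9, MYLK, MYH9 and VCL, and line 11 or 2 was highest for all 10 genes. Highest and lowest line were 1.47-fold (MYH10) to 3.3-fold (MYLK) apart. For MYL9 the order was line 4, 1, 8, 2, 11, and it held in both media. Line 4, with the highest bovine ACTA2, the smooth muscle actin gene (9709 normalised reads with IWR-1 and 16853 after withdrawal, against 273 to 10040 elsewhere), thus had the lowest MYL9. In the feeders the wells of lines 1 or 8 were lowest for 9 of the 10 genes, Mylk excepted, where line 11 was lowest.

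The size of the change was then compared between the species within each well pair. For MYL9 the bovine change was smaller than the feeder change in 5 of 5 lines, by -0.08 to -0.83 (mean -0.46 ± 0.29 SD). MYH10 also had the smaller change in the bovine reads in 5 of 5 lines (mean -0.37 ± 0.15 SD). VCL went the other way, larger in the stem cells in 5 of 5 (mean 0.24 ± 0.21 SD). Each of these 3 gave p = 0.0625 in the exact two-sided sign-flip test, the smallest that 5 lines allow, before any correction for 10 genes. MYH11 was at -0.51 ± 0.54 and LMOD1 at -0.30 ± 0.42, each below 0 in 4 of 5 lines (exact p = 0.125 and 0.188). The means of MYH9 (-0.02), ZYX (-0.04), FLNA (0.04), SRF (-0.06) and MYLK (-0.07) lay nearest 0, with exact p-values from 0.125 to 0.812.

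**Figure D5:**
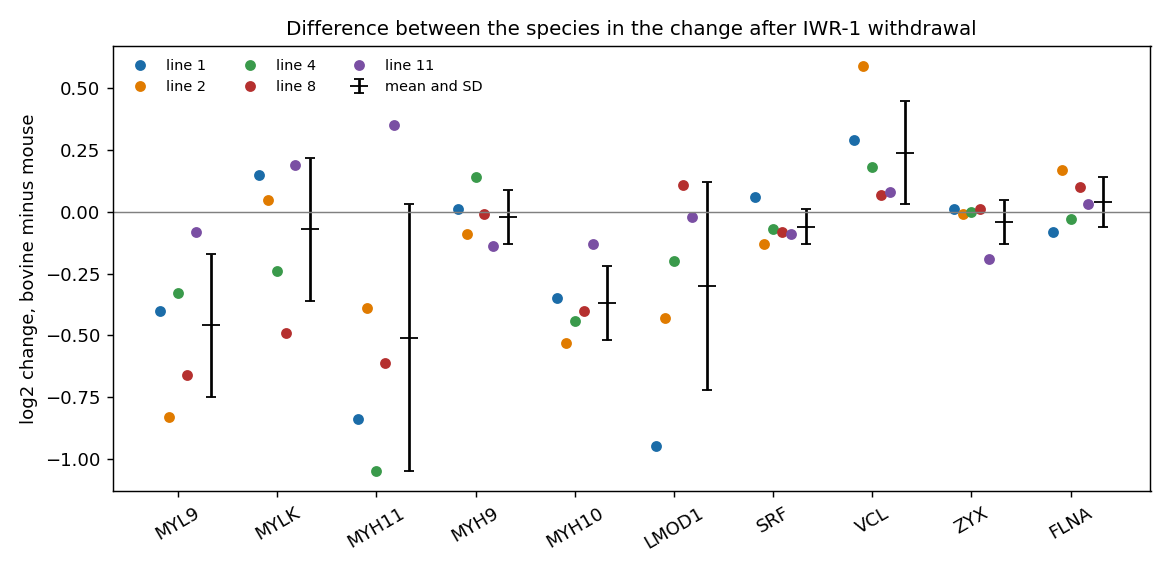
Difference of the log2 change, bovine minus mouse (vertical axis), for each gene in each of 5 lines, with mean and SD in black. All 5 points lie below 0 for MYL9 and MYH10 and above 0 for VCL.

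The ratio of mouse to bovine reads was set beside these values, because both tables come from the same libraries. Over all genes it was 26.9 to 73.3 mouse reads per 100 bovine reads, a 2.72-fold range, and lower without IWR-1 in 5 of 5 lines. For SRF, ZYX and FLNA the ratio ranged 2.51-fold to 3.09-fold over the wells. It ranged 13.8-fold for MYL9 (8.32 to 115), 14-fold for LMOD1 and 18.9-fold for MYLK (2.12 to 40.1). For MYL9, MYH11 and MYH10 it was higher without IWR-1 in 4 of 5 lines, against 0 of 5 for MYH9, VCL, ZYX and FLNA. The part of cross-aligned reads in these values was not tested.

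Other bovine genes of the pathway were counted by list. Of all 18506 tested bovine genes limma called 0.886% higher and 0.0648% lower. For edgeR it was 178 higher and 12 lower, and for DESeq2 358 and 62. At an unadjusted limma p under 0.05 stood 1870 genes, 48.4% of all tested genes lay above 0 and their median was 0.00. Among the cofactors of SRF and the ternary complex factors 0 of 9 tested genes were called by limma, edgeR or DESeq2, with 1 at an unadjusted p under 0.05, and 3 of 9 had a change above 0 (median -0.04). That 1 was MYOCD, the smooth muscle coactivator of SRF, whose values were lower in all 5 lines after withdrawal, from 183 ± 180 to 105 ± 78.9 normalised reads (SD, n = 5; log2 change -0.61 ± 0.19, limma adjusted p = 0.226). ELK3, a ternary complex factor, was at -0.15 ± 0.07, MRTFB at -0.10 ± 0.09 and the LIM cofactor FHL2 at 0.11 ± 0.07. Immediate early genes that SRF drives from serum response elements had 0 of 12 called by limma and by edgeR and 1 by DESeq2, with 2 at an unadjusted p under 0.05. ATF3 stood at 0.62 ± 0.13 (limma adjusted p = 0.0647), EGR1 at -0.26 ± 0.09, EGR3 at -0.24 ± 0.17 and MCL1 at 0.08 ± 0.05; the list's median was -0.02.

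Other class II myosin chains were mostly flat, with 1 of 17 called and a median of 0.02. Over all tested bovine genes 0.886% were called higher. MYL7, the atrial light chain, rose by 1.06 ± 0.20 (limma adjusted p = 0.0411) from a low level, 49.7 ± 40.4 to 120 ± 110 normalised reads (SD, n = 5), and lost its call without line 1, 4, 8 or 11. MYL4 was at 0.47 ± 0.10, MYL11 at 0.74 ± 0.22 and MYH6 at 0.50 ± 0.18, none of them called.

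Of 50 other focal adhesion genes 2 rose and 0 fell, 41 lay above 0, and the median was 0.09; over all tested bovine genes 0.886% were called higher, 48.4% lay above 0 and the median was 0.00. The Crk-associated scaffold gene BCAR1 had 6739 ± 883 normalised reads with IWR-1 and 8699 ± 1328 without it (SD, n = 5), a rise of 0.37 ± 0.06 (limma adjusted p = 0.0207), and the LIM protein gene CSRP1 rose by 0.39 ± 0.07 (adjusted p = 0.029). BCAR1 lost its call without line 1, 4 or 11, and CSRP1 without line 4, 8 or 11. NEDD9, a relative of BCAR1, was at 0.62 ± 0.14 and the actin-binding NEXN at 0.48 ± 0.12, both higher in 5 of 5 lines and not called.

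Of 18 tested smooth muscle contractile genes outside the set 6 rose and 0 fell, and the median was 0.27. Over all tested bovine genes 0.886% were called higher. TPM1 rose by 0.60 ± 0.05, TAGLN by 0.90 ± 0.08 and ACTA2 by 0.87 ± 0.09, each called whichever line was omitted. The integrin gene ITGA8 rose by 0.71 ± 0.10 and lost its call without line 1 or 11. Of this list 12 of 18 genes lay above 0, against 48.4% of all tested bovine genes. HHIP, encoding a hedgehog-binding protein, was lower after withdrawal in 5 of 5 lines and not called (-0.45 ± 0.09, limma adjusted p = 0.0535). DES, encoding the muscle intermediate filament desmin, was at 36.8 to 509 normalised reads with IWR-1 and 42.8 to 534 without it (-0.05 ± 0.13). On the list of fibroblast and mesenchyme markers 0 of 18 were called by limma and by edgeR and 4 by DESeq2, with 7 at an unadjusted p under 0.05, and 12 of 18 lay above 0 (median 0.16). Of all 18506 tested bovine genes DESeq2 called 358 higher and 62 lower. At an unadjusted limma p under 0.05 stood 1870 of them, and 48.4% lay above 0. LOX, the collagen cross-linking enzyme (0.39 ± 0.08), the receptor PDGFRB (0.56 ± 0.12) and the collagens COL1A1 (0.36 ± 0.08) and COL5A1 (0.29 ± 0.08) were each higher in 5 of 5 lines, with limma adjusted p-values from 0.0587 to 0.125. Going the other way, COL1A2 was at -0.30 ± 0.10 and DCN at -0.24 ± 0.13, each higher in 1 of 5 lines. MMP2 was at -0.13 ± 0.06 and higher in 0 of 5 lines. The summed level of that list was 74480 to 282373 normalised reads with IWR-1 and 72764 to 301224 without it. This sum was higher without IWR-1 in 4 of 5 lines. VIM alone was at 41682 to 114746 with IWR-1 and 39381 to 117893 without it, so the sum weighs that gene heavily. Of the list's 18 genes 0 were at 0 in all wells, and the part of these markers in the results above was not tested.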

How the data were processed

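RNA was measured by poly(A) sequencing in 10 co-culture wells. Per the labels, each library was aligned once to ARS-UCD1.3 (cattle) and once to GRCm39 (mouse). Tools listed in the submitters' processing notes are featureCounts 1.5.0-p3, HISAT2 2.0.5, fastp and StringTie 1.3.3b; their roles are not stated. The authors deposited 1 table per species of a normalised signal per gene, whose values were whole multiples of 1 step per library. Dividing by it gave whole reads for 100% of positive values (tolerance 0.01 reads). The mouse table's 2 columns without a sample label were not used. Bovine symbols came from a RefSeq table of ARS-UCD2.0 (24660 of 27590 IDs matched), so no coordinates are given. Promoter and protein sequences were not used here, so the planned motif search was not run.

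The test was limma 3.58.1 (R 4.3.3) on log2(value + 1), trended by intensity, line as a block, fitted to all genes reaching 10 normalised reads in 5 or more libraries. This scale understates changes of low genes. Both wells of a number are the same cell line, per the labels, and deviations from group means correlated within lines at 0.617 to 0.883 (bovine) and 0.488 to 0.725 (mouse). The p-values measure the spread between 5 lines with 1 well per medium each. Alternatives were a fit without the block, pseudocounts of 0.5 and 5, no filter, TMM rescaling, edgeR 4.0.16 and DESeq2 1.42.0 on recovered reads, the mouse share as covariate, and each line left out. The fits were tested on simulated data. Set members and gene lists were chosen with earlier results of these data known. Results of 2 lists are not reported here. Named genes are all 10 members, up to 4 per list with the smallest adjusted p, the 3 most similar to MYL9, SRF and FLNA, and always POU5F1, SOX2 and NANOG. COL1A2, DCN, MMP2, VIM, DES, HHIP, KRT7, LIN28A, TFAP2A, TFAP2C and, in the paragraph on lines, ACTA2 were named after their values were seen. The trophectoderm markers that did not pass the filter were also named afterwards.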

Additional observations from a re-analysis of the deposited data

Results flagged for a closer look

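Among 63 groups of 5 values examined for a sample far from the others, 3 stood out; chance alone gives about 1 in 20 groups. Feeder Srf with IWR-1 was at 1620 normalised reads in the well of line 11, against 1289 to 1331 in the other wells. Feeder Vcl changed by -0.16 on the log2 scale in the well of line 8, against 0.11 to 0.19 in the other 4. The mouse share of reads without IWR-1 was 41.4% in line 4, against 21.2% to 26.6% in the others.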

How the results depend on the processing

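The direction of each of the 10 genes in each table was kept under every alternative run. Without the replicate block 0 bovine and 0 mouse genes were called higher and 0 and 0 lower, and 0 members in either table. The same counts of 0 came with the mouse share as a covariate, a fit that separates medium and share only weakly. With no filter limma was fitted anew to 27335 bovine and 31114 mouse genes. It called 51 bovine genes higher and 2 lower, and 169 mouse genes higher and 160 lower. Feeder Myh10 then lost its call (limma adjusted p = 0.107). DESeq2 on recovered reads called 358 bovine genes higher and 62 lower, and 4 bovine members. With 1 line left out at a time, 31 to 159 bovine genes were called higher and 0 to 25 lower, and 0 to 2 bovine members higher, with 0 left without line 11; 136 to 477 mouse genes were higher, 133 to 459 lower, and 3 to 5 mouse members were called. The difference between species changed sign in those fits for MYLK (-0.13 to 0.04), MYH9 (-0.06 to 0.02) and ZYX (-0.05 to 0.00). The cause of these changes was not tested. Of the other single values, 304 kept side and direction, 19 lost and 3 gained a call. The mouse share differed by -3.64 points in the paired and unpaired test (exact p = 0.0625 and 0.452), and by -4.32 to -2.9 with 1 line left out. Depth limits feeder Myh11 and Lmod1 most, with 31 and 27 recovered reads in their lowest wells.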

Other observations

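Markers of other cell types in the bovine table moved as follows, where 0.886% of all tested bovine genes were called higher. Of 13 tested cardiac and skeletal muscle markers 3 rose, the alpha-actin genes ACTC1 (0.77 ± 0.11, limma adjusted p = 0.0124) and ACTA1 (0.65 ± 0.09) and the light chain gene MYL7, while TNNC1 was at 0.35 ± 0.12 and not called. ACTA1 lost its call without line 1 or 11. Of 13 trophectoderm markers 7 were tested, and of these 4 rose (KRT18, KRT8, TEAD4 and KRT19). The others, CDX2, GATA2, GATA3, ELF5, PAG2 and IFNT2, did not pass the filter on low values and were not tested. KRT7 (0.11 ± 0.15), TFAP2C (0.07 ± 0.41) and TFAP2A (-0.70 ± 0.48) were not called. Of 6 tested endothelial markers 1 rose (TEK, 0.59 ± 0.11). TEAD4 lost its call without line 1, KRT19 without line 1, 4 or 11 and TEK without line 1 or 11. Of 14 tested pluripotency markers 1 rose, NANOG (0.33 ± 0.06, limma adjusted p = 0.0411), which lost its call without line 1, 2, 4 or 11. Of that list 6 of 14 lay above 0, the median was -0.04, and the summed level was higher without IWR-1 in 0 of 5 lines. Abundant genes weigh most in that sum. DNMT3B had a mean of 43390 normalised reads with IWR-1 and 36481 without it, and POU5F1 had 35552 and 35012. LIN28A was higher without IWR-1 in 5 of 5 lines, with means of 23307 and 26421. FOXD3 (-0.44 ± 0.10), DNMT3B (-0.27 ± 0.07) and CRIPTO (-0.71 ± 0.23) were lower in all 5 lines and not called. In these 4 lists 0 genes passed the test downward.

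Over the 10 libraries, bovine MYL9 tracked most closely CNN2, encoding calponin 2 (Pearson r = 0.96 of log2 values), PXN, encoding the adhesion scaffold paxillin (0.95), and LIMS2 (0.95). The nearest to SRF were HIC2, TSC22D2 and TXNDC11 (0.98 each). The nearest to FLNA were AMOTL1 (0.98), SAMD4B (0.97) and UBAP2 (0.97). These values are descriptions over 10 libraries from 5 lines, in which differences between lines weigh most. None of the 9 genes was called by limma between media, with adjusted p-values from 0.0776 to 0.945.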
